A study of Mus musculus with 288 samples.

Results

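A set of 40 genes that act when a cell copies its DNA and divides were followed through 288 mouse liver libraries. The members were chosen by symbol from a list of DNA replication, cyclin and mitosis genes, and all 40 were found, 1 row each, among the 21869 genes of the count tables. Every mouse was a male wild-type C57BL/6J, housed alone with a running wheel and fed the same purified pellets. After a period on free food the mice were assigned to 6 feeding conditions and their livers were taken at 19 months or at 6 months of age. In the 5 calorie-restricted (CR) conditions the daily food was set at 70% of the ad libitum amount and not adjusted as AL intake grew with age, so the restriction was stronger at the later age. CR-night-2h and CR-day-2h mice ate it as 1 meal within 2 h at the start of the dark or the light phase, CR-night-12h and CR-day-12h mice received it in small portions over 12 h of the dark or the light phase, and CR-spread mice received the portions over the whole 24 h. AL mice ate ad libitum. Each of the 12 groups held 24 livers, 1 mouse each, taken every 4 h for 12 time points (0 to 44 h) as biological duplicates called A and B. The labels give the light condition as 12 h light and 12 h dark, while the headings of the count tables give constant darkness for the sampling days.

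Total counts ran from 2796688 to 18706281 a library. The median total of a group was 7341476 to 9382950 counts at 19 months and 4866470 to 9417006 counts at 6 months. Levels are given in CPM, a gene's counts relative to the library's total on a fixed scale, with the total scaled by TMM, edgeR's trimmed mean method. A floor of 3 counts stood for 0.160 to 1.07 CPM across libraries, which covers counting error only. This floor was computed on the totals before TMM scaling, so it is approximate for the levels given here. Of the 21869 genes, 12228 passed the filter on low counts, among them 36 of the 40 members. Aurkb, Bub1, Ccnb1 and Cdc6 did not pass and are given by their levels. A gene was called in a comparison when edgeR's quasi-likelihood test gave a Benjamini-Hochberg adjusted p under 0.05 and the fitted change was at least 1.5-fold. Fold changes are log2 values ± their standard error, the group named first over the group named second. The livers of 1 group are separate mice taken at different hours, so the spread within a group contains the time of day. Hepatocyte markers gave 50480 to 120000 CPM in summed level in AL livers of 19 months and 68850 to 105900 CPM in AL livers of 6 months.

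Before a cell copies its DNA, the MCM2-7 complex, a ring of related subunits, is loaded on replication origins by Cdc6 and Cdt1, and it becomes the active helicase when Cdc45, the GINS proteins and Mcm10 join it. Cyclins E and A with their kinases drive the entry into and passage through S phase, and cyclin B with Cdk1 drives mitosis. Most hepatocytes of an adult liver rest outside the cycle and many are polyploid, so transcripts of these genes are scarce in a healthy liver, and they can come from hepatocytes as well as from dividing immune or other cells. In bulk tissue more dividing cells and more RNA in each of them cannot be told apart.

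Many genes of G2 and mitosis carry a CHR element next to CCAAT boxes in their promoters, which the DREAM and MuvB complexes read, and many genes of the G1/S step carry E2F sites. RefSeq promoters (GRCm38.p6, 250 bases before to 50 after the start) were matched for 33 of the 40 members. These members had 36 promoters, and a member was counted when any of its promoters held the letters. The share of all is per promoter, so the 2 shares differ in unit, which can raise that of the members. The CHR letters TTTGAA, searched on both strands, were found for 12 of the 33 members (36.4%) and in 17.9% of all 32851 promoters of the same length. CCAAT was found for 24 members (72.7%) and in 37.4% of all promoters, and a promoter with both CHR and CCAAT was found for the same 12 members (36.4%) and in 6.95% of all. Any of the E2F letters TTTGGCGC, TTTCCCGC and TTTGGCGG was found for 7 members (21.2%) and in 2.10% of all promoters. TTTGGCGC and TTTGGCGG share their first 7 letters. A match describes the letters and not a bound site. The promoters of 6 members that are called in several of the comparisons are shown as examples of promoters with matches, chosen after their values were seen: Mki67, Plk1, Prc1 and Cdc20, which hold CHR and CCAAT, and Mcm5 and Mcm6, which hold an E2F match and CCAAT. Other members called in the same comparisons had none of these matches, among them Nusap1, Chaf1b, Tk1 and Trip13. Capitals mark the CHR, CCAAT and E2F matches on either strand.
Mki67 (chr7:135716330-135716629, minus strand): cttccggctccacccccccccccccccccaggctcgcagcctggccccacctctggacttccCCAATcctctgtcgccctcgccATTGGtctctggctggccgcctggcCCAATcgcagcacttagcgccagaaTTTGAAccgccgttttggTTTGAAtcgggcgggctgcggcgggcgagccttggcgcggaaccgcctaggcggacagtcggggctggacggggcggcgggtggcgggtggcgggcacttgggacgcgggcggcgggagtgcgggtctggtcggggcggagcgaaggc
Plk1 (chr7:122159185-122159484, plus strand): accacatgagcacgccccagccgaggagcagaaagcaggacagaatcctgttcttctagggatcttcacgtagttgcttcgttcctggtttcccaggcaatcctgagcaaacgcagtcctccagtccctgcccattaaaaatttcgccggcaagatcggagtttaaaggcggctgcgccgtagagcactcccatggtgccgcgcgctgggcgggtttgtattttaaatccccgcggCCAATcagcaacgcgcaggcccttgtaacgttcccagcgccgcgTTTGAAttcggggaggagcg
Prc1 (chr7:80294201-80294500, plus strand): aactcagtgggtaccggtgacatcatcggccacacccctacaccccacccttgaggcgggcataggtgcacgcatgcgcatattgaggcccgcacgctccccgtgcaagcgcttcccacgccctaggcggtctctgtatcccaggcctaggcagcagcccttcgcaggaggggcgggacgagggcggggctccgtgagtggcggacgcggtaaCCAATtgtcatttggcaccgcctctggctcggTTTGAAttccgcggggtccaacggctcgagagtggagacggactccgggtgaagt
Cdc20 (chr4:118437294-118437593, minus strand): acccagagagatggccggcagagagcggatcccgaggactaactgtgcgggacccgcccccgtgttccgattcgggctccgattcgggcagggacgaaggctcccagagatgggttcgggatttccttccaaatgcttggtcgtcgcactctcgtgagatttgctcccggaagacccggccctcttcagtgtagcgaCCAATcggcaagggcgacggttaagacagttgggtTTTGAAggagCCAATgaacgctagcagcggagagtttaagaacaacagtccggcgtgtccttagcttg
Mcm5 (chr8:75109259-75109558, plus strand): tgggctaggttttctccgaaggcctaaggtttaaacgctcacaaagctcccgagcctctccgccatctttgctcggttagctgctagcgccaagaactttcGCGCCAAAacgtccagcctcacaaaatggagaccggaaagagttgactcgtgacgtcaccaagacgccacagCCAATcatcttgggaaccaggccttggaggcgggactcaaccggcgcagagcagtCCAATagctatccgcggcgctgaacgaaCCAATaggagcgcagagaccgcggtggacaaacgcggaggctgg
Mcm6 (chr1:128359656-128359955, minus strand): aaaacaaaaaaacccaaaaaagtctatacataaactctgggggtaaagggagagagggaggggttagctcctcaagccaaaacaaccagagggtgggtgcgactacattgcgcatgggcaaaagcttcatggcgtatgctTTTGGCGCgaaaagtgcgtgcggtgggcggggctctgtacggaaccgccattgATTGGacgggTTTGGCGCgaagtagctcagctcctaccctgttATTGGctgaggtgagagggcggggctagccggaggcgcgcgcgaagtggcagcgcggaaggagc
The mitotic genes Aurka, Bub1b, Ccnb2, Cdk1, Kif11 and Top2a also held CHR and CCAAT, as did the replication genes Cdc45 and Mcm2. The other E2F matches were in Cdc6, Cdt1, Chaf1a, Mcm3 and Mcm7.

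Single livers stood far apart from the rest of their group, and they are given first because they hold much of the level in the CR groups. Mki67, the proliferation mark Ki-67 that coats mitotic chromosomes, reached at most 22.4 CPM in AL livers of 19 months, and 8 CR livers lay above that. They were 1 liver of CR-night-12h at 19 months (24.9 CPM), 1 of CR-night-2h at 19 months (36.01 CPM), 2 of CR-night-2h at 6 months (46.3 and 36.7 CPM), 1 of CR-day-2h at 19 months (27.5 CPM), 1 of CR-day-2h at 6 months (48.4 CPM), 1 of CR-day-12h at 19 months (27.2 CPM) and 1 of CR-spread at 19 months (45.1 CPM). The 48.4 CPM of the CR-day-2h liver at 6 months, taken at 20 h in set A, rested on 258 Mki67 counts, and its group median was 1.204 CPM. In each of the 8 livers 35 to 39 of the 40 members were above their group median. The 8 were picked by their Mki67 level and are all CR livers, so a count without them lowers CR groups and no AL group by construction and is given as a description only.

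The 8 livers differed in how Mcm5 stood to Prc1. Prc1, a microtubule bundler of the mitotic midzone, reached 21.0 CPM in the CR-night-2h liver of 6 months at 8 h, against a group median of 0.235 CPM, while its Mcm5, a subunit of the replicative helicase, was at 3.19 CPM against a median of 1.37 CPM. In the other CR-night-2h liver of 6 months, at 24 h, Mcm5 was at 23.3 CPM and Prc1 at 9.30 CPM. Mcm5 was also at 22.9 CPM in the CR-spread liver of 19 months at 12 h and at 23.5 CPM in the CR-day-2h liver of 19 months at 12 h, but at 3.80 CPM in the CR-day-12h liver and 5.01 CPM in the CR-night-2h liver of that age at 28 h. Mcm5 was nevertheless above its group median in each of the 8 livers, in each by a smaller factor than Prc1.

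Other transcripts moved in the same livers. Cdkn1a, the p53-induced inhibitor p21 of cyclin-dependent kinases, was above its group median in 7 of the 8, at 29.4 to 127.9 CPM against medians of 6.10 to 8.29 CPM, and below it in the CR-day-12h liver (4.42 against 11.03 CPM). Spp1, osteopontin, made by bile duct cells and by activated macrophages, was at 47.1 to 686.5 CPM in 6 of them, against group medians of 23.8 to 31.3 CPM, and at 32.5 and 20.6 CPM in the CR-day-12h and CR-night-12h livers. In the CR-night-2h liver of 19 months the summed cholangiocyte markers were 21.9 times and the lipid-associated macrophage markers 11.7 times the group median. Spp1 is in both marker lists, and its 686.5 CPM made up most of these sums (736.8 and 798.7 CPM), so they are not separate observations. The summed fetal or tumor-associated hepatocyte markers were 1.03 to 8.37 times the group median over the 8 livers, and the endothelial markers 0.576 to 0.989 times. Alb, albumin, was below the group median in all 8. The part of these other transcripts in the members' levels was not tested.

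**Figure D1:**
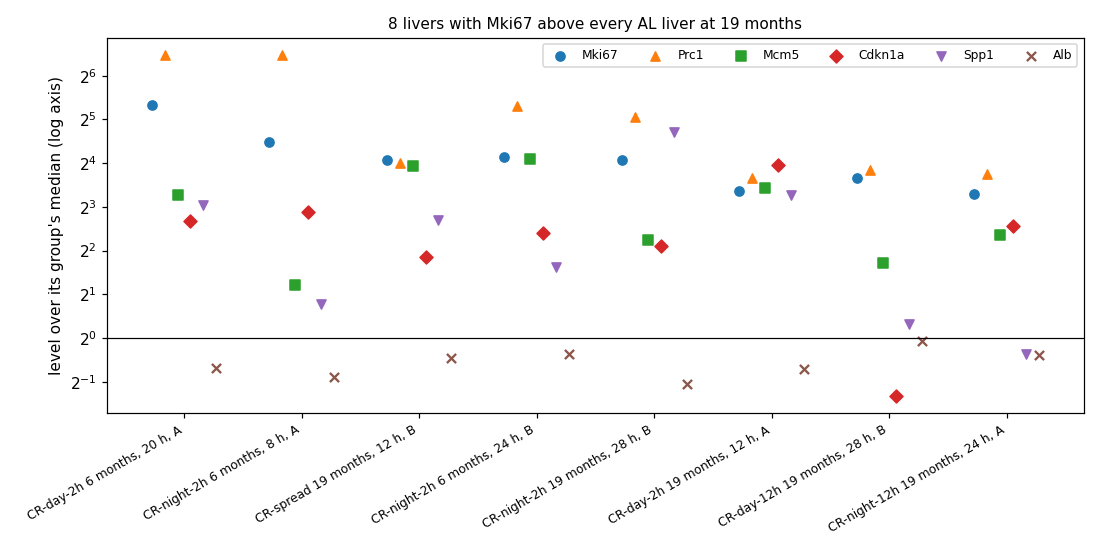
The level of 6 genes in each of the 8 livers with Mki67 above every AL liver of 19 months, divided by the median of the liver's group, on a log2 axis. Mki67 and Prc1 lie above the line of the group median in all 8, and Alb lies below it in all 8. Divided by the group median, Mcm5 lies below Prc1 in all 8. It lies farthest below in the CR-night-2h liver of 6 months at 8 h (3.19 CPM of Mcm5 and 21.0 CPM of Prc1).

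In AL livers the cell cycle genes were higher at 19 months, in every role but nucleotide supply. Of the 36 members tested, 23 were called higher and 1, Tk1, lower, where 10.8% of the 12228 genes tested were called higher and 4.47% lower. The median fold change of the members was 0.94 on the log2 scale, against -0.01 over all genes tested, and 30 members had an unadjusted p under 0.05. The comparison asked how the members differ with age under free feeding, and none of the 8 livers above belongs to it.

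Both proliferation marks rose. Mki67 (chr7:135689784-135716361, minus strand, GENCODE M21) had a lowest, median and highest level of 4.11, 11.02 and 22.4 CPM in AL livers of 19 months, against 1.11, 1.85 and 4.94 CPM in AL livers of 6 months. The groups hardly overlapped, since 22 of the 24 livers of 19 months lay above the highest of 6 months. The change was 2.43 ± 0.40 (edgeR quasi-likelihood test, adjusted p = 3.92e-08), a 5.38-fold higher level. Top2a, the topoisomerase that untangles sister chromosomes, had a median of 5.10 CPM at 19 months and 1.14 CPM at 6 months, with 14 of 24 livers above the highest liver of 6 months (2.04 ± 0.40, edgeR adjusted p = 4.85e-06).

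Among the licensing and helicase genes 6 of the 11 tested rose and none fell. Mcm2, a subunit of the helicase ring, had levels of 2.92, 5.11 and 11.7 CPM (lowest, median, highest) at 19 months, against 1.13, 2.34 and 5.55 CPM at 6 months, with 10 of 24 livers above the highest of 6 months (1.29 ± 0.23, edgeR adjusted p = 3.18e-07). Gins2, of the GINS complex, changed by 1.92 ± 0.35, but 67.3% of its exon bases overlap Gse1 on the other strand and strand-specific counting is not stated, so its reads and those of Gse1 cannot be told apart. The same holds for Gins2 in every later comparison. The helicase ring needs all 6 of its subunits, and not all of them were called. Mcm5, Mcm6, Mcm3 and Mcm4 changed by 1.24, 0.91, 0.86 and 0.82, whereas Mcm7 changed by 0.05 (adjusted p = 0.732 by edgeR) with 9.65 CPM at 19 months and 9.60 CPM at 6 months as medians. Cdc45, Cdt1 and Gins1 were not called (0.38, 0.41 and -0.22), and Mcm10 had -0.50 ± 0.23 (edgeR adjusted p = 0.059) with 8 of 24 livers of 19 months below the lowest of 6 months. Mcm5 overlapped more between the ages than Mcm2 did, with 6 of 24 livers above the highest of 6 months.

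None of the nucleotide supply genes was called higher. Tk1 (chr11:117815526-117826092, minus strand), the thymidine kinase of S phase that salvages thymidine, had 2.68, 5.43 and 12.1 CPM in AL livers of 19 months, against 5.47, 11.8 and 30.4 CPM in AL livers of 6 months. No liver of 19 months exceeded the highest of 6 months, 12 of 24 were below the lowest, and the change of -1.19 ± 0.18 had the smallest p of all members (edgeR adjusted p = 1.82e-09). The ribonucleotide reductase subunits Rrm1 and Rrm2 and the thymidylate synthase Tyms were not called. Rrm1 had a small difference of 0.44 ± 0.10 (edgeR adjusted p = 0.000115), under the 1.5-fold limit, with medians of 13.5 CPM at 19 months and 10.3 CPM at 6 months. Rrm2, the subunit that rises in S phase, had medians of 7.52 CPM at 19 months and 7.34 CPM at 6 months (-0.01).

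Of the 4 genes of the fork and of new chromatin, 3 rose. Uhrf1, which brings the maintenance DNA methyltransferase to new DNA, changed by 1.84 ± 0.42 with medians of 1.17 CPM at 19 months and 0.392 CPM at 6 months. Chaf1a and Chaf1b, subunits of the chromatin assembly factor CAF-1, changed by 1.24 ± 0.25 and 0.96 ± 0.24. For Chaf1a 52.5% of the exon bases overlap Ubxn6 on the other strand, so its value is uncertain here and in later comparisons, while Chaf1b shares the direction here. Smaller exon overlaps on the other strand include those of Ccne2 (17.4%, Ints8), Ccna2 (12.5%, Exosc9) and Prc1 (11.1%, Rccd1). The sliding clamp Pcna differed by only 0.28 ± 0.08 (edgeR adjusted p = 0.000949), under the fold limit, at 14.9 CPM in AL livers of 19 months and 12.5 CPM in those of 6 months.

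Of the 5 cyclin and kinase genes tested 3 rose. Ccnb2, a cyclin B, changed by 1.80 ± 0.39 with medians of 1.01 CPM at 19 months and 0.309 CPM at 6 months. Ccna2, cyclin A2, changed by 1.49 ± 0.35 with 2.32 CPM at 19 months and 0.795 CPM at 6 months, and Ccne2, a cyclin E, by 0.74 ± 0.25. The other cyclin E gene Ccne1 (0.39) and Cdk1 (0.67, edgeR adjusted p = 0.0855) were not called. Of the 6 mitotic kinase and checkpoint genes tested 5 rose: Plk1 (2.02 ± 0.43), Cdc20, the activator of the anaphase-promoting complex (1.47 ± 0.47), Aurka (1.27 ± 0.35), Bub1b (1.19 ± 0.30) and Trip13 (0.73 ± 0.23). Birc5, survivin, was not called (0.56). Plk1 counts were low, from 2 to 26 a library at 19 months and 0 to 8 at 6 months, but 16 of 24 livers of 19 months exceeded the highest of 6 months.

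All 4 spindle genes rose. Prc1 had 0.265, 1.93 and 3.34 CPM (lowest, median, highest) at 19 months, against 0.0793, 0.359 and 1.72 CPM at 6 months, a change of 2.12 ± 0.46 (edgeR adjusted p = 3.55e-05). Tpx2, which activates Aurora A on the spindle, changed by 2.15 ± 0.44, the microtubule binder Nusap1 by 1.93 ± 0.39, and Kif11, the motor that separates the spindle poles, by 1.00 ± 0.25. Tpx2 was above the highest liver of 6 months in 19 of 24 livers and Nusap1 in 18.

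The low members gave the same order of medians. Ccnb1, cyclin B1, had 0.514 CPM at 19 months and 0.0253 CPM at 6 months as medians and was at 0 counts in 1 liver of 19 months and in 12 of 6 months. Bub1, a kinase of the spindle checkpoint, had 0.450 CPM at 19 months and 0.0703 CPM at 6 months, the mitotic kinase Aurkb 0.579 CPM at 19 months and 0.228 CPM at 6 months, and the origin loader Cdc6 0.627 CPM at 19 months and 0.185 CPM at 6 months. These medians lie near the level of a few counts, and a filter that keeps the 4 genes calls each of them higher at 19 months, 28 members in all.

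**Figure D2:**
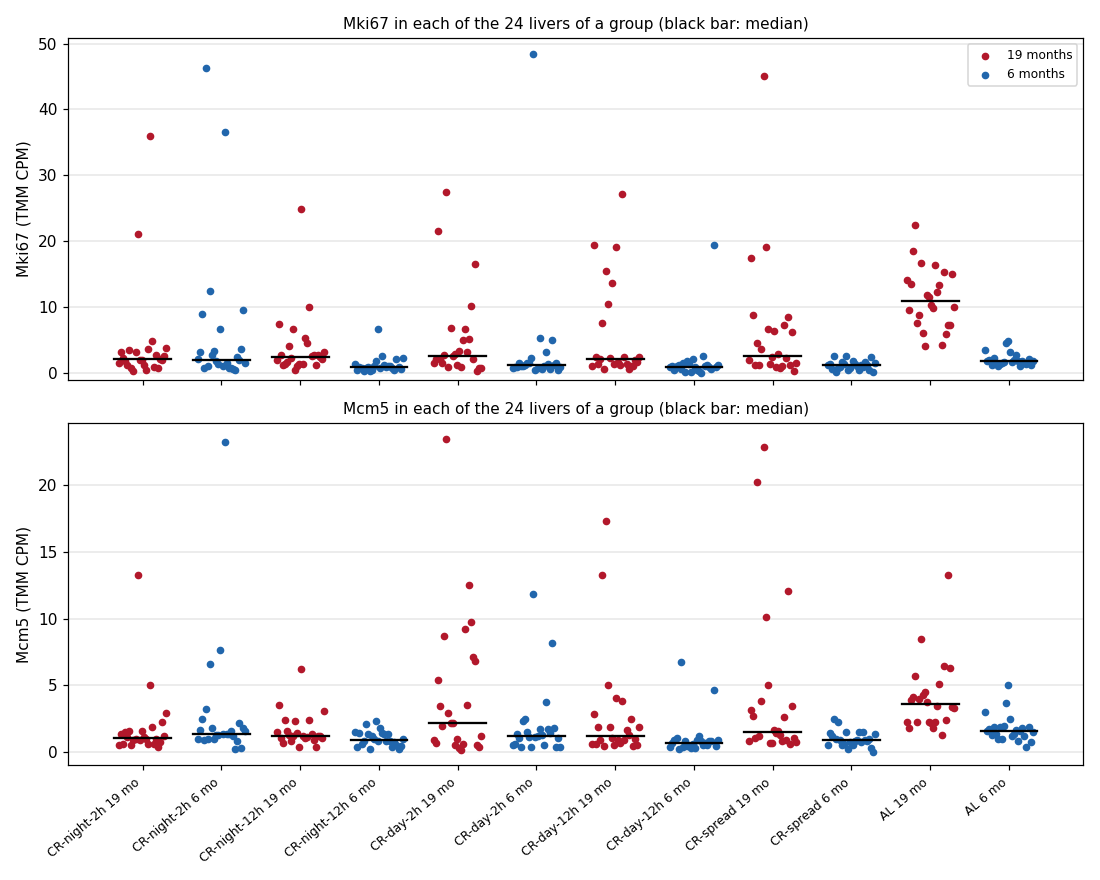
The level of Mki67 (top) and Mcm5 (bottom) in TMM CPM for each of the 24 livers of the 12 groups, with livers of 19 months in red left of those of 6 months in blue and a black bar at the median. Of the AL livers of 19 months, 22 lie above the highest AL liver of 6 months for Mki67 (median 11.02 against 1.85 CPM), while most CR livers of 19 months are low and single ones are above 22.4 CPM.

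The wider cell cycle machinery moved in part. In AL livers 11 of 15 genes of chromosome structure and the kinetochore rose with age, among them the kinetochore motor Cenpe (2.23) and Racgap1 (1.95), which acts in cytokinesis. Among the CDK inhibitors and the RB family 4 of 8 rose, Cdkn1a by 1.93 ± 0.44 (edgeR adjusted p = 7.66e-05) and Cdkn1c, Rbl1 and Cdkn2c with it. In the G2 gate 4 of 9 rose. Of 14 G1 cyclins, kinases and E2F factors only Ccnd1, cyclin D1, rose (1.04), and E2f1 had 0.39 (edgeR adjusted p = 0.082). Foxm1, a transcription factor of mitotic genes, rose by 1.47, and 2 of 20 genes of the origin and clamp loader list rose. In this comparison 10.8% of all genes tested were called higher. The calls in the G1 list and in the origin and clamp loader list were no larger a share than that. Genes of both sides of the cycle, drivers and inhibitors, were higher at 19 months.

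Markers of several other cell types, but not of all, were also higher in AL livers of 19 months. The summed Kupffer cell and macrophage markers had a median of 295.6 CPM (133.1 to 775.4) at 19 months and 168.7 CPM (72.2 to 251.4) at 6 months, with 6 of 8 called higher. The lipid-associated macrophage markers had 130.5 CPM (39.6 to 237.3) at 19 months and 54.7 CPM (32.8 to 79.8) at 6 months, with 6 of 6 higher. Higher were also 3 of 4 T and NK cell markers tested, 4 of 5 B and plasma cell markers, 5 of 6 stellate cell markers and 2 of 2 neutrophil markers, while 0 of 6 hepatocyte markers were higher and 1 was lower. Of all genes tested 10.8% were called higher and 4.47% lower. The summed endothelial markers hardly differed, with medians of 135.4 CPM at 19 months and 134.6 CPM at 6 months. The summed erythroid and hematopoietic progenitor markers had medians of 162.9 CPM at 19 months and 137.1 CPM at 6 months. The part of all these markers in the members' change was not tested.

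Across the 24 AL livers of 19 months Mki67 went with Top2a (Pearson r = 0.77, Spearman rho = 0.69, adjusted permutation p = 0.00011 and 0.00235). It went against Alb (r = -0.66, rho = -0.74, adjusted permutation p = 0.00198 and 0.00154), with r = -0.64 in set A and -0.58 in set B. It hardly went with Mcm5 (r = 0.20, rho = 0.21, adjusted permutation p = 0.511 and 0.458). In AL livers of 6 months Mki67 went with both Top2a (r = 0.80, rho = 0.65, adjusted permutation p = 0.000147 and 0.00429) and Mcm5 (r = 0.78, rho = 0.70, adjusted permutation p = 0.00011 and 0.00235). Without the 2 livers farthest from the Mki67 median, r was 0.67 with Top2a, -0.67 with Alb and 0.10 with Mcm5 at 19 months, and 0.69 with Top2a and 0.62 with Mcm5 at 6 months. For Cd68, a macrophage marker, r at 19 months was 0.52 (rho = 0.40, adjusted permutation p = 0.031 and 0.126), with 0.68 in set A and 0.62 in set B, but 0.30 without these 2 livers. Leaving out the livers farthest in Mki67 also narrows its range, so the lower r cannot show whether the relation rests on them. Col1a1, a collagen of stellate cells, had r = 0.57 (rho = 0.61, adjusted permutation p = 0.0165 and 0.00766), with 0.69 in set A and 0.40 in set B. These are 7 of 22 relations computed over both ages on log2 CPM, and the points of 1 group share its range of depths.

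Under CR the number of members called higher at 19 months ran from 1 to 28 of 36 over the feeding patterns. In CR-night-2h livers 1 of 36 members was higher at 19 months, Ccne2 (0.87 ± 0.28, edgeR adjusted p = 0.00973), where 2.09% of all genes tested were called higher. Of the Ccne2 exon bases 17.4% overlap Ints8 on the other strand, so part of its reads may be those of Ints8. In this comparison 5 members had an unadjusted p under 0.05, and DESeq2 called 2. In CR-night-12h livers 13 were higher (4.54% of all genes), in CR-day-2h livers 10 (5.71%), in CR-day-12h livers 18 (5.22%) and in CR-spread livers 28 (5.53%), and none was lower in any of the 5. The median fold change of the members was -0.15, 0.54, 0.57, 0.80 and 1.27 in that order.

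In CR-spread livers both replication and mitotic genes rose with age. Chaf1a, Chaf1b, Mcm6 and Mcm5 changed by 1.69 ± 0.28, 1.52 ± 0.27, 1.64 ± 0.30 and 2.08 ± 0.39, Mki67 by 2.35 ± 0.45 and Prc1 by 3.03 ± 0.60 (edgeR adjusted p from 1.27e-07 to 1.16e-05). The Mki67 levels were 0.342, 2.69 and 45.1 CPM (lowest, median, highest) at 19 months and 0.162, 1.26 and 2.64 CPM at 6 months, and 12 of 24 livers of 19 months were above the highest of 6 months. The single liver at 45.1 CPM held 29.3% of the group's summed Mki67, against 8.20% for the highest liver of AL at 19 months. Without the 8 livers 25 members were higher, without the 3 highest livers of each group 17, and in the second day of sampling (24 to 44 h) 5.

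In CR-day-12h livers Tpx2 (2.52 ± 0.55), Mcm6 (1.36 ± 0.30), Prc1 (2.47 ± 0.58) and Mki67 (1.66 ± 0.43) rose, and Mki67 was above the median of 6 months in 22 of 24 livers but above its highest liver in 1. The 18 calls were 17 without the 8 livers, 10 without set A, 5 without set B, 16 in the first day of sampling (0 to 20 h) and 0 in the second. In CR-night-12h livers the members that rose were mostly mitotic: Prc1 (2.58 ± 0.64), Cdc20 (2.58 ± 0.73), Top2a (1.87 ± 0.51), Mki67 (1.70 ± 0.48) and Kif11 (1.25 ± 0.31), with Mcm6 (0.76 ± 0.32) as the 1 licensing gene. The other 7 were Nusap1, Tpx2, Aurka, Ccna2, Ccnb2, Cdk1 and Ccne2. These 13 calls were 2 without set A, 0 in the first day and 14 in the second, 1 of the 14 lower.

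In CR-day-2h livers the 10 members called were 6 of 11 licensing and helicase genes, 2 of 5 cyclin and kinase genes, 1 of 4 fork and chromatin genes and 1 of 6 mitotic kinase and checkpoint genes. Mcm6 (1.37 ± 0.30), Ccne2 (1.32 ± 0.29), Mcm4 (0.79 ± 0.18), Mcm5 (1.15 ± 0.36), Mcm2, Gins1, Mcm10, Chaf1b, Ccne1 and Trip13 were higher at 19 months, and no nucleotide supply gene, no spindle gene and neither proliferation mark was called. A difference between these roles was not tested. The CR-day-2h liver of 6 months with 48.4 CPM of Mki67 held 57.1% of that group's summed Mki67, and 24 members were higher without the 8 livers. The count was 20 without the highest liver of each group by the summed level of the members, 4 without set A, 5 without set B and 6 in the first day.

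In CR-night-2h livers the medians of Mki67 were 2.12 CPM at 19 months and 2.07 CPM at 6 months, and 2 livers of 19 months and 6 of 6 months were above the 4.94 CPM that no AL liver of 6 months exceeded. Top2a, Mcm2 and Prc1 likewise had medians of 0.837, 2.06 and 0.337 CPM at 19 months and 0.810, 2.07 and 0.235 CPM at 6 months. The 2 livers of 6 months with 46.3 and 36.7 CPM of Mki67 entered this comparison, and without the 8 livers 2 members were called. Without set B 12 members were lower at 19 months and none higher, and without set A 0 were called.

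**Figure D3:**
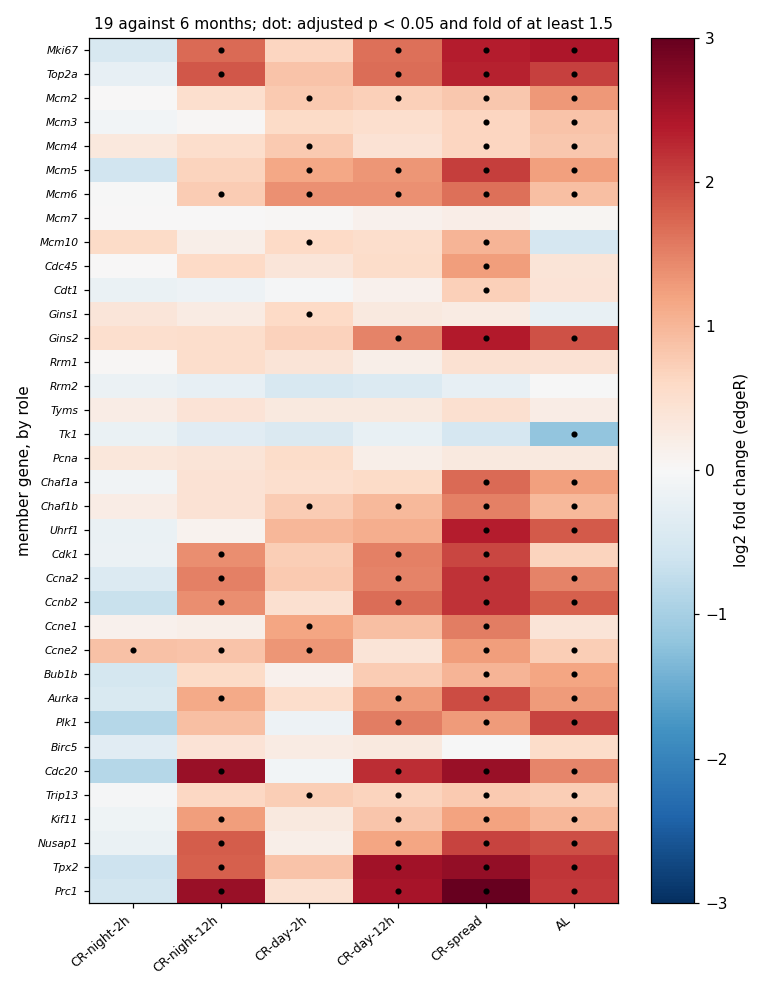
The log2 fold change (edgeR) at 19 months over 6 months for the 36 members tested, ordered by role, in each feeding condition, with a dot where the adjusted p is under 0.05 and the fold at least 1.5. The AL column has 24 dots (Tk1 in blue), CR-spread 28 and CR-night-2h 1.

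The age effect itself was compared between each CR condition and AL, as the difference of the fold changes. In CR-night-2h it was smaller than in AL for 18 members and larger for Tk1 and Mcm10, where 17.1% of all genes tested were called in either direction. Mki67 differed by -2.90 ± 0.55 (edgeR adjusted p = 5.54e-06), Plk1 by -2.87 ± 0.61, Tpx2 by -2.77 ± 0.62, Ccnb2 by -2.46 ± 0.55, Mcm5 by -1.81 ± 0.50 and Mcm2 by -1.28 ± 0.34. Members of all roles but nucleotide supply were among the 18. Without the 8 livers 15 were smaller and 3 larger, without set A 1 member was called, and in the second day 8.

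In the other 4 conditions fewer members differed from AL. In CR-day-2h 4 were smaller, Plk1 (-2.17 ± 0.64), Mki67 (-1.79 ± 0.57), Nusap1 (-1.75 ± 0.59) and Prc1 (-1.65 ± 0.68), and 3 larger, Mcm10, Gins1 and Tk1, where 12.6% of all genes were called, and none was smaller without the 8 livers. CR-night-12h differed in Mcm3 (-0.82 ± 0.28) and Tk1 (11.8%), CR-day-12h in Mcm10 and Tk1 (8.36%), and CR-spread in Mcm10, Cdc45, Tk1 and Cdk1 (12.1%), all 4 larger. In CR-night-12h, CR-day-12h and CR-spread the members called were a smaller share than that of all genes. Tk1 was thus called in all 5 differences, with 0.99 ± 0.25, 0.84 ± 0.25, 0.77 ± 0.25, 0.96 ± 0.25 and 0.70 ± 0.25 in CR-night-2h, CR-night-12h, CR-day-2h, CR-day-12h and CR-spread. These 5 comparisons share the same AL livers.

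CR was next compared with AL at 19 months, again with the AL livers shared. Lower than in AL were 11 members in CR-night-2h (8.04% of all genes tested were lower), 18 in CR-night-12h (8.91%), 3 in CR-day-2h (5.77%), 2 in CR-day-12h (6.92%) and 0 in CR-spread (7.82%). In CR-day-12h and CR-spread the members called lower were a smaller share than that of all genes. For CR-spread 7 members had an unadjusted p under 0.05 in either direction, and DESeq2 also called 0 lower. One member was higher in each of the 5, and in each it was Tk1.

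In CR-night-12h livers of 19 months the helicase, chromatin and mitotic genes were lower together. Mcm2 changed by -1.19 ± 0.23 (edgeR adjusted p = 6.08e-06), Uhrf1 by -1.84 ± 0.44, Mcm5 by -1.30 ± 0.35, Mcm3 and Mcm4 by -0.78 and -0.69, Mki67 by -1.49 ± 0.38, Plk1 by -1.32 ± 0.43 and Top2a by -1.20 ± 0.39. The median Mki67 level was 2.55 CPM in CR-night-12h livers and 11.02 CPM in AL livers of 19 months, and 17 of the 24 were below the lowest AL liver, 4.11 CPM. CR-night-2h livers showed Mcm2 at -1.01 ± 0.23 (edgeR adjusted p = 9.70e-05), Mki67 at -1.32 ± 0.37 and Mcm5 at -1.12 ± 0.34, with a median Mki67 of 2.12 CPM and 21 of 24 livers below the lowest AL liver.

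The medians of the day-fed and spread groups also lay below AL, although few members were called. The median Mki67 level at 19 months was 2.69 CPM in CR-day-2h, 2.14 CPM in CR-day-12h and 2.69 CPM in CR-spread, and 16, 17 and 14 of 24 livers were below the lowest AL liver. Their called changes were Mki67 at -1.03 ± 0.37, Nusap1 at -0.94 ± 0.37 and Kif11 at -0.62 ± 0.25 in CR-day-2h, and Mki67 at -0.93 ± 0.37 and Kif11 at -0.61 ± 0.25 in CR-day-12h. Without the highest liver of each group, AL included, 6 members were lower in CR-day-2h, 9 in CR-day-12h, 4 in CR-spread, 16 in CR-night-2h and 17 in CR-night-12h. With limma on log2 CPM, which weighs single high livers less, 10, 13, 9, 20 and 20 were lower in the same order. Without the 8 livers, all of them CR livers, the counts were 8, 7, 6, 18 and 20, which their choice pushes upward. Without set A no member was lower in CR-night-2h or CR-day-12h and 7 were in CR-night-12h, and without set B these numbers were 20, 10 and 9. The shares over all genes given above belong to the edgeR fit of all libraries. Those under the other settings are not given, so these counts have no share of all genes beside them.

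Tk1 was the 1 member higher under CR at 19 months. Its medians at 19 months were 10.3 CPM in CR-night-2h and 8.76 CPM in CR-spread, against 5.43 CPM in AL, and the fold changes were 1.00 ± 0.18, 1.204 ± 0.18, 1.05 ± 0.18, 0.97 ± 0.18 and 0.70 ± 0.18 in CR-night-2h, CR-night-12h, CR-day-2h, CR-day-12h and CR-spread (edgeR adjusted p from 3.59e-09 to 0.001). At 6 months its median was 12.7 CPM in CR-night-2h, 12.7 CPM in CR-spread and 11.8 CPM in AL.

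Of the regulators, Foxm1 and Cdkn1a were lower than in AL in the night-fed groups of 19 months. Foxm1 had -1.01 in CR-night-2h and -1.34 in CR-night-12h, and it was not called in CR-day-2h (-0.76), CR-day-12h (-0.57) or CR-spread (-0.59). Cdkn1a had -1.01 in CR-night-2h and -1.50 in CR-night-12h, and it was not called in CR-day-2h (-0.06), CR-day-12h (-0.09) or CR-spread (-0.91). Its medians lay closer, at 7.84 CPM in CR-night-2h, 6.30 CPM in CR-night-12h, 8.29 CPM in CR-day-2h, 11.03 CPM in CR-day-12h and 8.18 CPM in CR-spread. The CR-day-2h group holds a single liver at 127.9 CPM, so a difference of Cdkn1a between night and day feeding is not shown by these calls. Of 15 genes of chromosome structure 3 were lower in CR-night-2h (8.04% of all genes tested were lower), 4 in CR-night-12h (8.91%) and 1 in CR-day-2h (5.77%). The count in CR-day-2h is near the share of all genes. In CR-day-12h and CR-spread 6.92% and 7.82% of all genes were lower. Macrophage and stellate cell markers were lower in all 5 CR conditions, also in CR-spread, where no member was lower. The Kupffer cell and macrophage markers were lower for 7 of 8 in each of the 5, with median sums of 112.9 CPM in CR-night-2h, 171.0 CPM in CR-night-12h, 124.1 CPM in CR-day-2h, 168.3 CPM in CR-day-12h and 141.9 CPM in CR-spread, against 295.6 CPM in AL. Of 6 stellate cell markers 4 were lower in CR-day-12h and 3 in each of the other 4 conditions. Alb differed by 0.48 to 0.72 over the 5 conditions, past the fold limit in CR-night-2h and CR-night-12h. The part of these transcripts in the members' change was not tested.

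**Figure D4:**
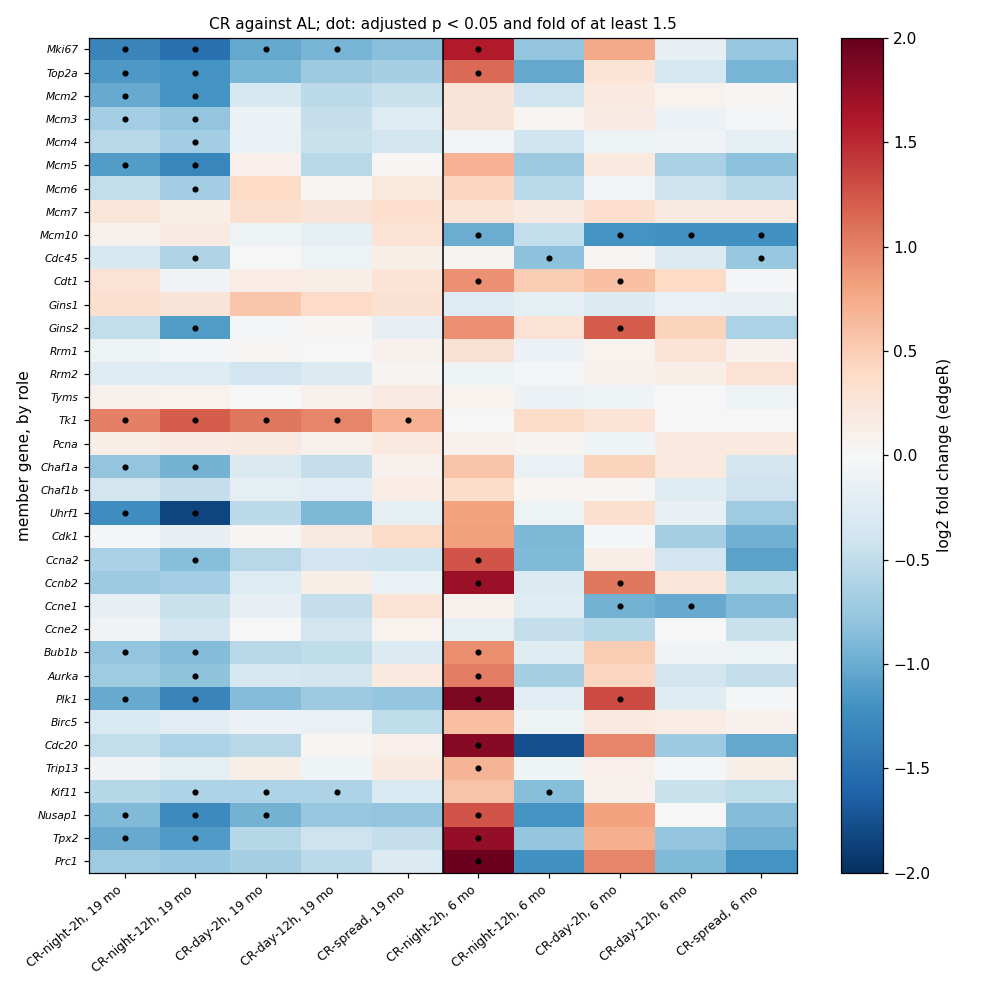
The log2 fold change (edgeR) of each CR condition over AL for the 36 members tested, at 19 months and at 6 months, with a dot where a member was called. At 19 months the dots of lower members stand mostly in CR-night-12h (18) and CR-night-2h (11), with 3 in CR-day-2h and 2 in CR-day-12h, and Tk1 is higher in all 5 columns, and at 6 months CR-night-2h has 13 higher members.

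At 6 months CR gave few differences from AL, and the largest count was that of CR-night-2h, with higher members. There 13 members were higher and Mcm10 was lower, where 7.21% of all genes were called in either direction. Ccnb2 (1.73 ± 0.41), Prc1 (1.97 ± 0.48), Plk1 (1.86 ± 0.46), Cdc20 (1.82 ± 0.49) and Mki67 (1.58 ± 0.41, edgeR adjusted p = 0.00117) led. The medians did not follow, since Prc1 had 0.235 CPM in CR-night-2h and 0.359 CPM in AL, with 7 of 24 CR-night-2h livers at 0 counts, and Mki67 had 2.07 CPM in CR-night-2h and 1.85 CPM in AL. Without the 8 livers, 2 of which are in this group, 1 member was higher. The number higher was also 1 with limma and without the 3 highest livers of each group, and 0 without set A and in the second day.

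The other restricted groups of 6 months differed from AL in 2 to 6 members. In CR-night-12h, CR-day-12h and CR-spread the 2 members called of 36 were a smaller share than that of all genes. In CR-day-2h Gins2 (1.21 ± 0.41), Plk1 (1.30 ± 0.49), Ccnb2 (1.06 ± 0.44) and Cdt1 (0.60 ± 0.24) were higher and Mcm10 and Ccne1 lower (8.16% of all genes called), and no member was higher without the highest liver of each group, here the liver of 20 h in set A. In CR-night-12h Cdc45 (-0.83 ± 0.25) and Kif11 (-0.86 ± 0.31) were lower (6.63%), in CR-day-12h Mcm10 and Ccne1 (6.53%), and in CR-spread Mcm10 and Cdc45 (7.47%). Mcm10 (chr2:4989714-5012791, minus strand) was lower in 4 of the 5 restricted conditions, by -0.99 ± 0.23 to -1.22 ± 0.24. Its levels were 7.16, 20.4 and 50.6 CPM (lowest, median, highest) in CR-night-2h and 8.06, 13.7 and 39.1 CPM in CR-spread, against 17.1, 28.8 and 98.8 CPM in AL, so the groups overlapped. At 19 months Mcm10 was not called in any of the 5.

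Within restriction, the time of feeding and the presence of a fast were compared over pooled conditions. At 19 months CR-night (2h and 12h) had less Mcm2 (-0.68 ± 0.17), Mcm6 (-0.81 ± 0.20), Mcm5 (-0.98 ± 0.25) and Gins2 (-0.80 ± 0.24) than CR-day, where 1.48% of all genes were called, and no mitotic gene was called. Limma called 0 of the 4, as did the fit without set A and that of the second day. At 6 months 0 members were called between CR-night and CR-day (1.01% of all genes) by edgeR's quasi-likelihood test, with 2 at an unadjusted p under 0.05, 1 called by DESeq2 and 0 by limma. CR with a fast (the 4 timed conditions) had less Chaf1a than CR-spread at 19 months (-0.71 ± 0.19, 0.769% of all genes) and more Gins2 (1.34 ± 0.42) and Cdt1 (0.64 ± 0.21) at 6 months (0.842%). Without set A, or with limma, 0 members were called in these 2 comparisons. Chaf1a and Gins2 have the exon overlaps given above, so their values are uncertain here and for night against day.

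The livers were taken every 4 h, and a 24 h cosine fitted within each group asked which members were rhythmic. A member was called at an adjusted p under 0.05 and a fitted peak-to-trough ratio of at least 1.5. In CR-night-2h 6 of 36 members were rhythmic at 19 months (20.8% of all genes) and 5 at 6 months (20.5%). In CR-night-12h 5 were rhythmic at 19 months (21.1%) and 8 at 6 months (22.0%). In CR-day-2h 15 were rhythmic at 19 months (13.4%) and 16 at 6 months (18.3%), and in CR-day-12h 3 at 19 months (14.1%) and 12 at 6 months (24.0%). In CR-spread 9 were rhythmic at 19 months (8.73%) and 5 at 6 months (12.1%), and in AL 16 at 19 months (15.6%) and 13 at 6 months (19.0%). The share of members was above that of all genes in AL and CR-day-2h at both ages, in CR-spread at 19 months and in CR-day-12h at 6 months. It lay within 1 member of it in CR-spread and CR-night-12h at 6 months and below it in the other 4 groups. Most counts fell when set A or set B was used alone, to 9 and 2 for AL at 19 months. The order of members and all genes therefore holds for the full groups only. The counts of CR-day-2h at 6 months and of CR-night-2h at both ages moved without the highest liver, as given below.

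Mcm10 and Rrm2 were rhythmic in 11 of the 12 groups, Tk1 in 9, Ccne1 in 7, Cdt1 in 6 and Ccne2 in 5. In AL livers of 19 months Mcm10 averaged 13.0, 20.7, 51.5, 43.7, 32.8 and 12.4 CPM at 0, 4, 8, 12, 16 and 20 h of the 24 h cycle, and in AL livers of 6 months 19.5, 32.3, 63.6, 76.3, 32.7 and 21.3 CPM. The fitted peaks were at 10.6 h (4.66-fold, edgeR adjusted p = 1.69e-08) and 10.3 h (4.17-fold, edgeR adjusted p = 1.06e-08). In the groups fed by night the Mcm10 peak was at 9.97 h (19 months) and 8.40 h (6 months) in CR-night-2h and at 10.3 h (19 months) and 10.7 h (6 months) in CR-night-12h. In CR-day-12h it was at 3.69 h (19 months) and 3.52 h (6 months), and in CR-spread at 9.38 h (19 months) and 7.03 h (6 months). In CR-day-2h it was at 22.3 h at 19 months and was not called at 6 months. A difference between peak hours was not tested.

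Rrm2 had fitted peaks between 9.73 and 17.99 h in the 11 groups. In AL livers of 19 months its mean was 5.74 CPM at 4 h and 14.3 CPM at 16 h. Of the 16 rhythmic members of this group, Ccne1 and Mcm10 peaked at 10.8 and 10.6 h, Uhrf1, Chaf1b, Mcm2, Chaf1a, Mcm3, Mcm5, Gins2, Ccne2, Mcm6, Tk1 and Rrm2 between 11.7 and 15.5 h, and the mitotic Kif11, Plk1 and Cdc20 at 2.78, 4.83 and 6.43 h. The other mitotic members were not called there, Mki67 among them (adjusted p = 0.135 by edgeR), and no difference between peak hours was tested. At 6 months the AL peaks of Ccne2, Tk1 and Rrm2 lay at 13.7, 13.7 and 14.7 h, and Top2a, Mki67 and Prc1 peaked at 21.9, 22.0 and 23.3 h.

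Single livers entered the rhythms as well. In CR-day-2h at 6 months Plk1, Prc1, Top2a, Mki67 and Cdc20 had fitted peaks between 19.6 and 20.6 h, the hour of the liver with 48.4 CPM of Mki67, and the 16 rhythmic members became 6 without the highest liver. In CR-night-2h the counts were 16 at 19 months and 12 at 6 months without the highest liver, and in CR-day-12h at 19 months 6. The shares of all genes without the highest liver are not given. In CR-day-2h at 19 months Mcm5 (17.4-fold, 9.81 h), Mcm6 (6.84-fold, 9.77 h), Mcm2, Mcm3 and Mcm4 peaked together, and 12 members were rhythmic without the highest liver.

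**Figure D5:**
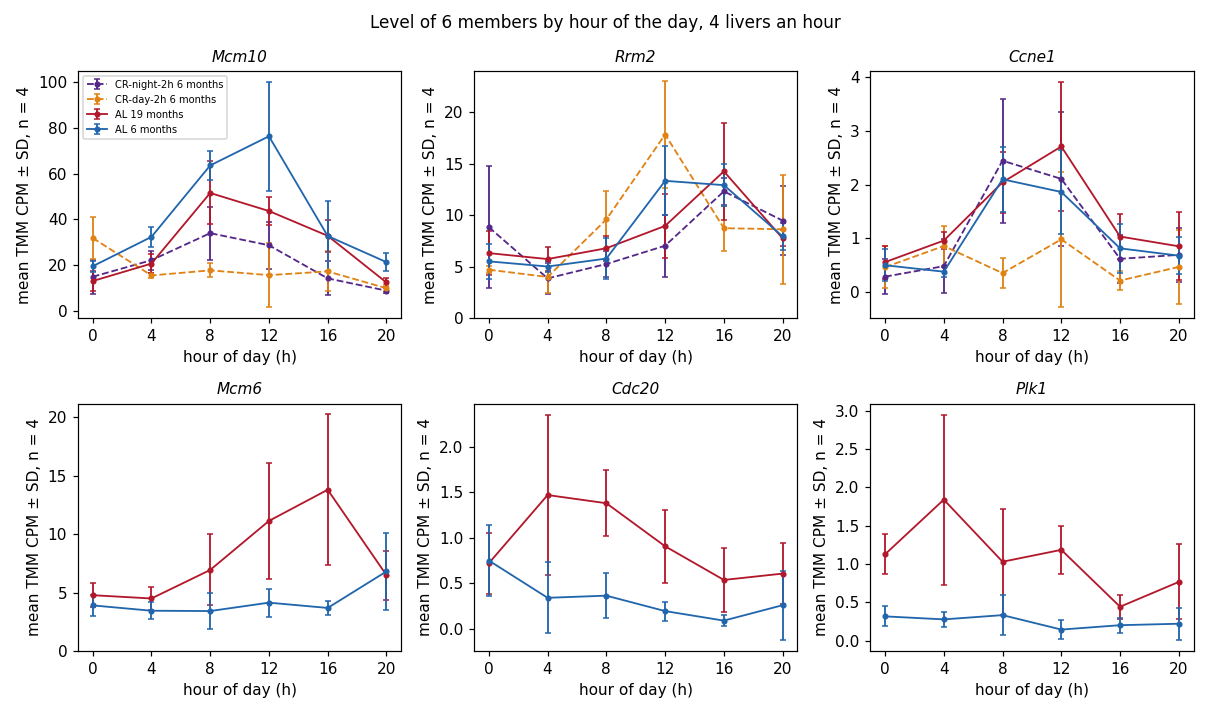
The mean level in TMM CPM ± SD (n = 4 livers) of 6 members by hour of the 24 h cycle, in CR-night-2h and CR-day-2h at 6 months and in AL at both ages for the top row, and in AL at both ages for the bottom row. Mcm10 in AL livers is highest at 8 h (51.5 CPM at 19 months) or 12 h (76.3 CPM at 6 months).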

How the data were processed

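Poly(A) RNA of 288 mouse livers was sequenced from TruSeq libraries. The deposited tables hold raw read counts per gene, which the authors made with cutadapt, STAR and featureCounts after FastQC, per the labels; the sources used here state no version, genome build or strand setting. A deposited table of RPKM values was not used. All value columns were mapped to a sample by name, and no pair of libraries was identical. Groups are feeding condition by age. The 40 members, their roles, the other gene lists and the marker lists were chosen with earlier results of these data known.

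Counts were fitted with edgeR 4.0.16 in R 4.3.3 (TMM, filterByExpr, quasi-likelihood F test, 12 group means over all 288 libraries), with p-values adjusted by Benjamini-Hochberg over the 12228 genes tested. Rhythms were tested within each group with a cosine and a sine term of 24 h. CPM were TMM-scaled, and log2 CPM used a prior count of 2. Correlations were tested with 100000 permutations, two-sided. Alternatives were DESeq2 1.42.0, its size factors, a filter at a mean of 0.1 CPM, a time term, a replicate block, each replicate set left out, each sampling day alone and the highest liver of each group left out. Chosen after seeing the data were limma 3.58.1, leaving out the 3 highest livers of each group, and leaving out the 8 livers with Mki67 above every AL liver of 19 months. Every member called in a comparison may be named, with full statistics for those of smallest p in each role or that differ between feeding conditions. Gene positions come from GENCODE M21 for the 35 members whose ID version matches, and promoters from RefSeq. The fitting code was tested on simulated data.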

Additional observations from a re-analysis of the deposited data

Results flagged for a closer look

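The age effect (19 months over 6 months, log2) differed from that of AL, by edgeR's quasi-likelihood test of the difference with Benjamini-Hochberg adjustment, for 35 pairs of a member and a CR condition, and all 5 comparisons use the same AL livers. In CR-night-2h the difference from AL was negative for 18 members. The proliferation marks had -2.90 (Mki67) and -2.29 (Top2a). The replication genes had -1.81 (Mcm5), -1.41 (Gins2), -1.28 (Mcm2) and -0.94 (Mcm3). The fork and chromatin genes had -2.05 (Uhrf1) and -1.35 (Chaf1a). The cyclins had -2.46 (Ccnb2) and -1.90 (Ccna2), the mitotic kinase and checkpoint genes -2.87 (Plk1), -2.32 (Cdc20), -1.73 (Aurka) and -1.72 (Bub1b), and the spindle genes -2.77 (Tpx2), -2.68 (Prc1), -2.13 (Nusap1) and -1.15 (Kif11). Tk1 (0.99) and Mcm10 (1.07) differed in the positive direction. Without set A only 1 of these 20 differences was called, and without the 3 highest livers of each group 12 of them were.

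In CR-day-2h the difference was negative for Plk1 (-2.17), Mki67 (-1.79), Nusap1 (-1.75) and Prc1 (-1.65) and positive for Mcm10 (1.10), Gins1 (0.82) and Tk1 (0.77). None of the negative ones was called without the liver of 48.4 CPM Mki67 and the 7 others above the AL range. In CR-night-12h Mcm3 had -0.82 and Tk1 0.84. In CR-day-12h Mcm10 had 1.02 and Tk1 0.96. In CR-spread Mcm10 had 1.51, Cdk1 1.32, Cdc45 0.88 and Tk1 0.70. In CR-night-12h, CR-day-12h and CR-spread the members called were a smaller share than that of all genes. Mcm10 and Tk1 were the members with -0.50 and -1.19 in AL itself, so a positive difference means a smaller fall, or a rise, with age under CR.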

How the results depend on the processing

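Counts are of members called in either direction by edgeR unless another tool is named, and causes of a move were not tested. The shares of all genes called under these settings are not given, so a moved count has no such share beside it. DESeq2's size factors and the time term moved no count by over 1.5 times. The AL age count stayed between 17 and 28. With the wider filter, the counts that moved by over 1.5 times were for the age comparison 3 in CR-night-2h. With DESeq2 they were for the age comparison 2 in CR-night-2h, for CR against AL at 6 months 4 in CR-night-12h, for the age effect minus that of AL 4 in CR-night-12h, for the pooled CR comparisons 6 for fast against spread at 6 months and 1 for night against day at 6 months. In the first day alone they were for the age comparison 4 in CR-night-2h, 0 in CR-night-12h and 6 in CR-day-2h, for CR against AL at 19 months 2 in CR-day-2h, 1 in CR-day-12h and 0 in CR-spread, for CR against AL at 6 months 1 in CR-night-12h, 2 in CR-day-2h and 1 in CR-day-12h, for the age effect minus that of AL 1 in CR-night-12h, 3 in CR-day-2h, 0 in CR-day-12h and 2 in CR-spread, for the pooled CR comparisons 0 for fast against spread at 6 months. In the second day alone they were for the age comparison 0 in CR-night-2h, 0 in CR-day-12h and 5 in CR-spread, for CR against AL at 19 months 7 in CR-night-2h, 5 in CR-night-12h, 1 in CR-day-2h, 7 in CR-day-12h and 8 in CR-spread, for CR against AL at 6 months 0 in CR-night-2h, 0 in CR-night-12h, 1 in CR-day-2h, 1 in CR-day-12h and 1 in CR-spread, for the age effect minus that of AL 8 in CR-night-2h, 0 in CR-night-12h, 0 in CR-day-2h, 1 in CR-day-12h and 1 in CR-spread, for the pooled CR comparisons 0 for fast against spread at 19 months, 0 for fast against spread at 6 months and 0 for night against day at 19 months. Without the highest liver of each group they were for the age comparison 2 in CR-night-2h and 20 in CR-day-2h, for CR against AL at 19 months 7 in CR-day-2h, 10 in CR-day-12h and 5 in CR-spread, for CR against AL at 6 months 2 in CR-day-2h and 4 in CR-spread, for the age effect minus that of AL 4 in CR-night-12h and 3 in CR-day-2h, for the pooled CR comparisons 4 for fast against spread at 19 months, 1 for fast against spread at 6 months and 2 for night against day at 6 months, for rhythms 16 in CR-night-2h 19 months, 12 in CR-night-2h 6 months, 6 in CR-day-2h 6 months, 6 in CR-day-12h 19 months and 8 in CR-spread 6 months. With limma they were for the age comparison 16 in CR-day-2h, for CR against AL at 19 months 21 in CR-night-2h, 11 in CR-day-2h, 14 in CR-day-12h and 10 in CR-spread, for CR against AL at 6 months 2 in CR-night-2h, 7 in CR-night-12h, 3 in CR-day-2h, 4 in CR-day-12h and 5 in CR-spread, for the age effect minus that of AL 5 in CR-night-12h and 4 in CR-day-2h, for the pooled CR comparisons 0 for fast against spread at 19 months, 0 for fast against spread at 6 months and 0 for night against day at 19 months. Without the 3 highest livers of each group they were for the age comparison 2 in CR-night-2h, 18 in CR-day-2h and 17 in CR-spread, for CR against AL at 19 months 8 in CR-day-2h, 14 in CR-day-12h and 11 in CR-spread, for CR against AL at 6 months 2 in CR-night-2h, 7 in CR-night-12h, 8 in CR-day-12h and 7 in CR-spread, for the age effect minus that of AL 13 in CR-night-2h, 4 in CR-night-12h, 3 in CR-day-2h and 1 in CR-day-12h, for the pooled CR comparisons 0 for fast against spread at 19 months and 0 for fast against spread at 6 months. Without the 8 livers they were for the age comparison 2 in CR-night-2h and 24 in CR-day-2h, for CR against AL at 19 months 19 in CR-night-2h, 9 in CR-day-2h, 8 in CR-day-12h and 7 in CR-spread, for CR against AL at 6 months 2 in CR-night-2h, 6 in CR-night-12h and 4 in CR-spread, for the age effect minus that of AL 5 in CR-night-12h and 3 in CR-day-2h, for the pooled CR comparisons 2 for fast against spread at 19 months and 1 for fast against spread at 6 months.

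With set A or set B alone the counts ran, for the age comparison 0 to 12 in CR-night-2h, 2 to 9 in CR-night-12h, 4 to 5 in CR-day-2h and 5 to 10 in CR-day-12h, for CR against AL at 19 months 1 to 21 in CR-night-2h, 8 to 10 in CR-night-12h, 1 to 6 in CR-day-2h, 1 to 11 in CR-day-12h and 0 to 4 in CR-spread, for CR against AL at 6 months 1 to 9 in CR-night-2h, 0 to 2 in CR-night-12h, 2 to 3 in CR-day-2h, 1 in CR-day-12h and 1 to 2 in CR-spread, for the age effect minus that of AL 1 to 24 in CR-night-2h, 0 to 1 in CR-night-12h, 0 to 4 in CR-day-2h, 0 in CR-day-12h and 1 in CR-spread, for the pooled CR comparisons 0 to 1 for fast against spread at 19 months, 0 to 2 for fast against spread at 6 months and 0 to 1 for night against day at 19 months, for rhythms 1 to 7 in CR-night-2h 19 months, 7 to 9 in CR-night-2h 6 months, 1 to 2 in CR-night-12h 19 months, 3 to 5 in CR-night-12h 6 months, 4 to 7 in CR-day-2h 19 months, 1 to 3 in CR-day-2h 6 months, 1 to 4 in CR-day-12h 19 months, 2 to 6 in CR-day-12h 6 months, 1 to 3 in CR-spread 19 months, 0 to 6 in CR-spread 6 months, 2 to 9 in AL 19 months and 7 to 9 in AL 6 months. The deviation of set A from its group mean, taken over genes, was correlated between groups. Over 66 pairs of groups the correlation ran from -0.33 to 0.47 (median 0.06), and 29 pairs were over 0.1. These correlations compare groups, so they cannot show whether the letters pair mice. The sets also differed in depth in some groups. The median total was higher in set B for AL at 6 months and higher in set A for CR-day-2h at 19 months. It was close between the sets for CR-night-2h at both ages. The part of depth in the counts of single sets was not tested. With the letter as a replicate block the AL age count was 24 and the only count that moved was the rhythms of CR-day-2h at 6 months, with 10.

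Some single fold changes turned their sign. For CR-night-2h against AL at 6 months without the 3 highest livers of each group these were Top2a (-0.46), Nusap1 (-0.0896), Tpx2 (-0.21), Aurka (-0.26), Ccna2 (-0.48) and Prc1 (-0.62), with limma Top2a (-0.034) and Ccna2 (-0.0473), without the 8 livers Ccna2 (-0.00147), and in the second day Trip13 (-0.0514). Plk1 in CR-day-2h against AL at 6 months had -0.32 without replicate A, 2.21 without replicate B and -0.00729 with limma, and the Prc1 age effect of CR-day-2h minus AL had 0.41 without the 3 highest livers. Of the Mki67 relations, r without the 2 farthest livers was 0.302 for Cd68 at 19 months, and at 6 months 0.516 for Cd3e, 0.477 for Col1a1 and 0.471 for Hbb-bt. In the single sets r was 0.591 to 0.602 for Cd79b and 0.404 to 0.69 for Col1a1 at 19 months, and at 6 months 0.37 to 0.602 for Cd68 and -0.19 to 0.658 for Cd3e. Members under about 1 CPM rest on few counts in the shallower livers of 6 months.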

Other observations

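Cell cycle genes outside the 40 members gave the following counts in the CR groups. Of 15 genes of chromosome structure and the kinetochore, 11 were higher at 19 months than at 6 months in CR-spread livers, led by the condensin subunits Ncaph, Ncapg and Smc4 by p, where 5.53% of all genes tested were higher, and 0 in CR-night-2h livers, where 2.09% were. At 6 months 9 of the 15 were higher in CR-night-2h than in AL, with Ube2c, Anln and Cenpf first by p, together with Foxm1, and so were 3 of 6 lipid-associated macrophage markers (Gpnmb, Mmp12 and Trem2), where 592 of all 12228 genes tested were higher. Livers with high Mki67 in that group are described above, and their part in these counts was not tested.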
